A study of Homo sapiens with 6 samples.

Results

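The genes described here are the hosts of small RNAs and a few long noncoding RNAs, most of them nuclear, in SNU-449 cells labelled as overexpressing USP48. Members were chosen by symbol: SNHG with a number, MIR with the ending HG, and the genes NEAT1, MALAT1, GAS5, EPB41L4A-AS1 and ZFAS1. Each gene is represented by the brightest probe set that names it and no other gene, brightest meaning the highest mean over all 6 arrays. By this rule 51 of 19775 measured genes were members, namely 11 SNHG genes, 36 MIR host genes and 4 of the 5 genes chosen by name. NEAT1 was not a member, because each of its probe sets also names the microRNA gene MIR612, and its values are given apart.

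The study compared SNU-449, a human hepatocellular carcinoma line, between 2 groups of 3 Affymetrix arrays each. Cells of the USP48 overexpression group were stable lines. They had received USP48, which encodes a protease that removes ubiquitin, by lentivirus at a high multiplicity of infection, and puromycin was used for selection. Cells of the empty vector group are labelled as controls carrying the vector without USP48. The labels do not say whether the replicates of a group came from separate cultures or how many lines were selected. The p-values thus cover the spread between these arrays alone, part of which may be technical.

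Many small nucleolar RNAs (snoRNAs), which guide the chemical modification of ribosomal RNA, are cut out of the introns of longer transcripts, their host genes. The spliced hosts of the SNHG family, GAS5 and ZFAS1 are short-lived RNAs, and several are known to be degraded by nonsense-mediated decay when they are translated. MIR host genes carry microRNA hairpins, which DROSHA and DICER1 cut to the mature form. MALAT1 is an abundant RNA of nuclear speckles, and NEAT1 is the scaffold of paraspeckles, nuclear bodies built with proteins such as NONO and SFPQ.

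The short RNAs inside the hosts that changed show what these transcripts carry, so mature microRNAs of the called MIR hosts, MIR3667HG excepted, come first. Of each hairpin shown 1 arm is given, and miR-3619 and miR-4763, which also lie in MIRLET7BHG, are not printed. The sequences are from RefSeq on GRCh38.p14, with the seed, bases 2 to 8, in capitals. They are grouped by seed, since microRNAs of one seed share predicted targets.
hsa-miR-181a-5p: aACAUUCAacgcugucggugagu
hsa-miR-181b-5p: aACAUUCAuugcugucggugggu
hsa-let-7a-5p: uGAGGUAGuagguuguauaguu
hsa-let-7b-5p: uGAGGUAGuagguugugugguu
hsa-let-7c-5p: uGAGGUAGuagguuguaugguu
hsa-miR-99a-5p: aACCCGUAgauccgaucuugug
hsa-miR-125b-5p: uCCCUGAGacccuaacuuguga
hsa-miR-31-5p: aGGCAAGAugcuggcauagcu
hsa-miR-550a-3p: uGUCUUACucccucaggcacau
Both miR-181 members lie in MIR181A2HG, let-7a and let-7b in MIRLET7BHG, and let-7c, miR-99a and miR-125b in MIR99AHG. The let-7 seed thus lies in MIRLET7BHG and MIR99AHG, each of which had probe sets called in both directions. The arrays measured the host transcripts, and the mature microRNAs were not analysed here.

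The start sites of the snoRNA hosts are shown because genes of this class are known for a terminal oligopyrimidine tract, a run of C and T at the first base of the RNA that ties translation to growth signals. Each window runs from 20 bases before the annotated start to 30 bases from it. Capitals mark a run of at least 5 C or T that begins with C at the start, and a window without capitals has no such run. SNHG32 lies at chr6:31834896-31834945 and ZFAS1 at chr20:49278622-49278671, both on the plus strand, and SNHG19 at chr16:2155329-2155378 on the minus strand. EPB41L4A-AS1 lies at chr5:112160506-112160555 and SNHG33 at chr3:183447588-183447637, both on the plus strand, and SNHG17 at chr20:38435299-38435348 on the minus strand (GRCh38.p14).
SNHG32: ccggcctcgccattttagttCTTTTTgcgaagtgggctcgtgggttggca
ZFAS1: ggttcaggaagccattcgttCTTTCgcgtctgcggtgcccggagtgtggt
SNHG19: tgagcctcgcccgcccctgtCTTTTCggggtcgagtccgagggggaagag
EPB41L4A-AS1: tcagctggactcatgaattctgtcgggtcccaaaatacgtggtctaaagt
SNHG33: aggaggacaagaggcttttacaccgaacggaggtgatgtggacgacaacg
SNHG17: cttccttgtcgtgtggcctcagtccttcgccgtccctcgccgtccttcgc
Of these hosts SNHG32, ZFAS1, EPB41L4A-AS1, SNHG33 and SNHG17 were higher and SNHG19 was lower, so hosts with and without such a run were found among those higher. Among the 40 members with a promoter in the RefSeq table, 5 had the run, 12.5% against 4.07% of all 35116 promoters, and 4 of these 5 were among the 10 SNHG members with a promoter. The 26 MIR hosts with a promoter had none.

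The arrays were alike within groups. Across the 19775 genes the Pearson correlation between arrays was 0.9957 to 0.9969 within the USP48 overexpression group, 0.9974 to 0.9976 within the empty vector group and 0.9821 to 0.9859 between them, with genes not being independent replicates. USP48 itself was not called higher by any of its 5 probe sets, and 2 of them were called lower, by 0.82 and 0.63 on the log2 scale, so the groups are named by their labels. The 18 hybridization control probe sets, which read labelled RNAs added before hybridization, averaged 10.09 on the USP48 overexpression arrays and 9.79 on the empty vector arrays. Scaling the arrays on them moves the median difference of all genes to −0.24, against 0.05 in the deposited values, so all differences fall by the same amount under it. Of 12 measured hepatocyte markers, 11 were at or below the median level of all genes, ALB and APOB among them, and 0 were called by limma (1 at an unadjusted p under 0.05), or 4 lower with scaling on the hybridization controls. TTR, a plasma transport protein of the liver, was above it, at 5.31 on the USP48 overexpression arrays and 5.11 on the empty vector arrays. Most defining hepatocyte transcripts were thus low in both groups of this liver line.

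At a limma adjusted p under 0.05 over all genes, 13 of the 51 members were called (25.5%, where 29.8% of all genes were). Of these, 7 were higher in USP48 overexpression cells (15.7% of all genes were) and 6 were lower (14.1% of all genes). The median difference over the members was 0.09 on the log2 scale and over all genes 0.05. Scaled on the hybridization controls, the members' median was −0.20, with 3 members higher (4.84% of all genes were) and 17 lower (37.9% of all genes). The groups did not overlap for 17 members (42.9% of all genes), 11 of them higher (23.8% of all genes) and 6 lower (19.1% of all genes). The share called was near the background, so the members are described one by one. In bulk RNA fewer cells with a transcript and less of it per cell cannot be told apart.

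Calls were more frequent among the bright members. The mean level of a member over the 6 arrays ran from 0.83 to 11.63 on the log2 scale. Of the 14 members above the median level of all genes, 9 were called (64.3%, where 46.3% of the genes above that level were), 5 higher (22.4% of such genes) and 4 lower (23.9%). Of the 37 members at or below it, 4 were called (10.8%, where 13.4% of such genes were), 2 higher (8.98% of such genes) and 2 lower (4.38%). All 4 SNHG members above the median level were called, 3 higher and 1 lower. None of the 7 dim SNHG members was called at its brightest probe set, with 0 at an unadjusted p under 0.05. The dimmer probe set of SNHG27, 237770_at, was called higher (0.31, limma adjusted p = 0.0383 over all probe sets).

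**Figure D1:**
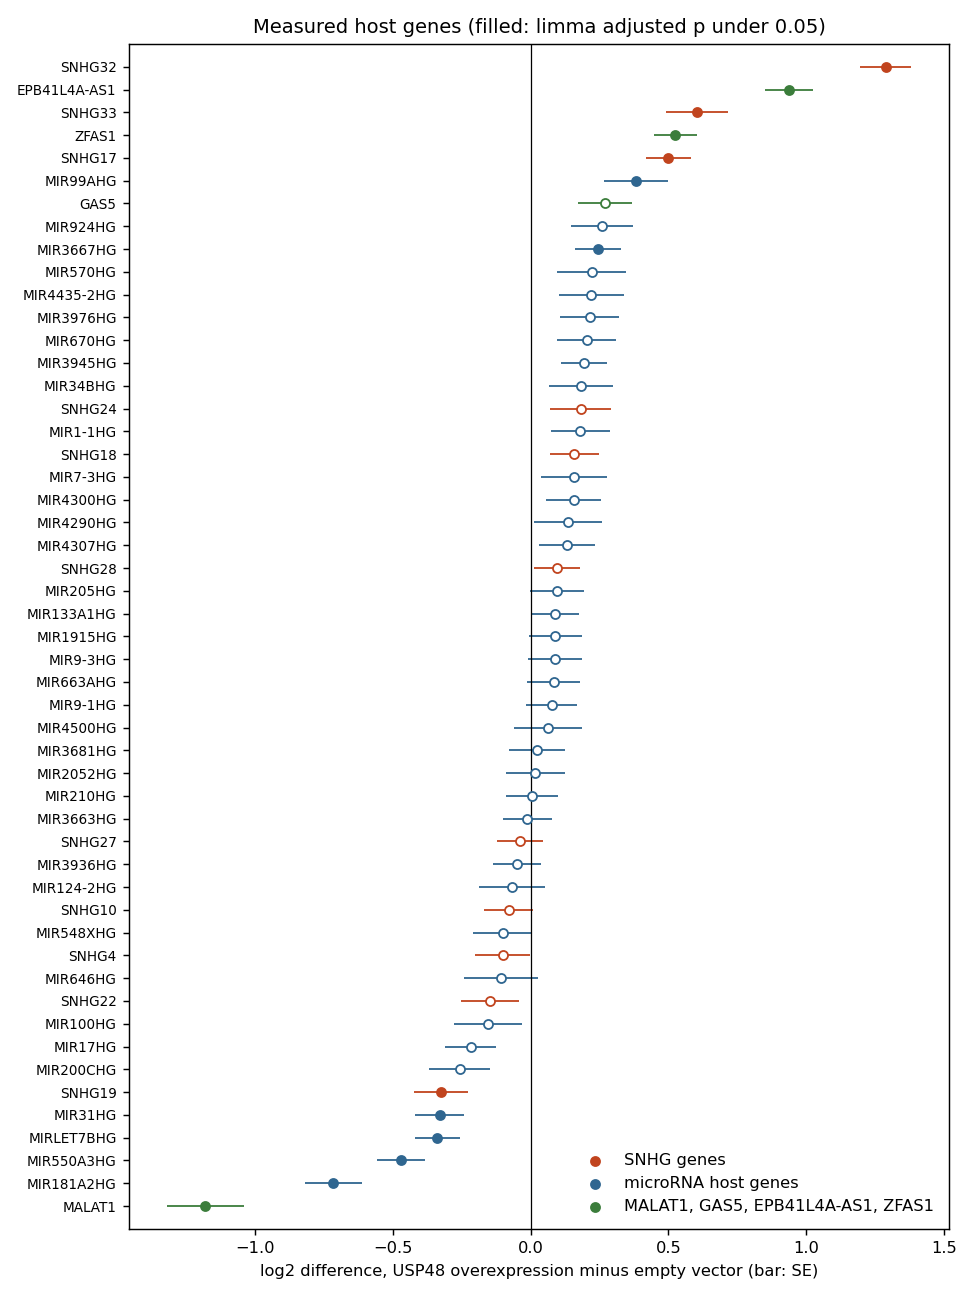
Log2 difference of each of the 51 members, USP48 overexpression minus empty vector (horizontal axis, bar: SE of the limma fit), with members called at an adjusted p under 0.05 filled. SNHG32 at 1.29 and MALAT1 at −1.18 lie at the ends, and the 38 members not called lie between −0.26 and 0.27. With scaling on the hybridization controls 3 members were called higher and 17 lower.

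Among the members that host snoRNAs SNHG32, which carries SNORD48 and SNORD52, differed most. Its level was 9.59, 9.55 and 9.77 on the USP48 overexpression arrays, against 8.31, 8.43 and 8.29 on the empty vector arrays. Every USP48 overexpression array lay more than 1 log2 unit above every empty vector array. The difference was 1.29 ± 0.09 (SE), or 2.44-fold, with a limma adjusted p of 4.67e-06, and it was 1.0 with scaling on the hybridization controls.

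EPB41L4A-AS1 carries SNORA13 and overlaps EPB41L4A, a gene of the band 4.1 family, from the opposite strand. It was at 9.0, 8.88 and 8.85 in USP48 overexpression cells and at 8.04, 7.99 and 7.89 in empty vector cells. The groups were far apart relative to their spread, and the difference was 0.94 ± 0.09 (SE; limma adjusted p = 2.32e-05). Its dimmer probe set, 228259_s_at, went the other way, at 2.97 ± 0.32 in USP48 overexpression cells and 3.53 ± 0.18 in empty vector cells (SD, n = 3 each), which is −0.56 on the log2 scale and was called lower (limma adjusted p = 0.0226 over all probe sets). With the mean of both probe sets the gene was not called (0.19, limma adjusted p = 0.168).

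SNHG33, with SNORA63D and SNORA63E inside, was at 6.37, 6.36 and 6.65 on the USP48 overexpression arrays and at 5.99, 5.90 and 5.68 on the empty vector arrays. The groups did not overlap. The difference of 0.60 ± 0.11 (SE; limma adjusted p = 0.00213) was matched by its second probe set, 228275_at, at 0.59. The gene was still called with scaling on the hybridization controls (0.31, limma adjusted p = 0.0367), and over all probe sets the second one was not (0.29, limma adjusted p = 0.0507).

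ZFAS1, the host of SNORD12, SNORD12B and SNORD12C, was the brightest member, above 99.3% of all genes. It was at 11.92, 11.87 and 11.89 in USP48 overexpression cells, against 11.36, 11.37 and 11.38 in empty vector cells. The replicates of each group were nearly equal, and the difference was 0.52 ± 0.08 (SE; limma adjusted p = 0.00053). Its other bright probe sets gave 0.54 and 0.55, neither called with scaling on the hybridization controls, and a dim one, 229899_s_at, gave −0.39 (limma adjusted p = 0.014 over all probe sets). ZFAS1 was not called with scaling on the hybridization controls (0.23, limma adjusted p = 0.0991).

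SNHG17, which carries the SNORA71 snoRNAs, stood at 9.84, 9.81 and 9.72 in USP48 overexpression cells and at 9.26, 9.32 and 9.28 in empty vector cells. All USP48 overexpression arrays were higher, with a difference of 0.50 ± 0.08 (SE; limma adjusted p = 0.000933). Its second probe set gave 0.54. Scaling on the hybridization controls ended the call of the gene (0.21, limma adjusted p = 0.153) and of the second probe set (0.25).

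SNHG19, the host of SNORD60, was the only SNHG member called lower. It was at 7.52, 7.34 and 7.57 in USP48 overexpression cells and at 7.79, 7.91 and 7.69 in empty vector cells. The highest USP48 overexpression array lay just under the lowest empty vector array. The difference was −0.32 ± 0.10 (SE; limma adjusted p = 0.0279), and the gene missed the threshold when USP48 overexpression replicate 1 (limma adjusted p = 0.0535) or 2 (0.0934) or empty vector replicate 1 (0.0721) or 2 (0.113) was left out.

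Some of the best known snoRNA hosts have no bright probe set of their own on this array, because the annotation lists the snoRNAs in their introns beside them. Which of the named transcripts a probe reads was not tested. These probe sets were therefore outside the rule, and their values, adjusted over all 54613 probe sets (24.3% called), are given as those of probe sets naming the host and its small RNAs. Of 31 hosts with such a probe set, 7 were higher at the brightest one (10.6% of all probe sets were) and 1 was lower (13.8% of all probe sets), or 5 higher and 8 lower with scaling on the hybridization controls (3.34% and 39.0% of all probe sets).

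GAS5, a growth-arrest transcript with 11 small RNA genes inside its span, shows how much the choice of probe set matters. Its own single-symbol probe set was dim, at 4.48, 4.69 and 4.70 on the USP48 overexpression arrays and at 4.47, 4.28 and 4.31 on the empty vector arrays. The groups were next to each other without overlap, and the difference of 0.27 ± 0.10 (SE) was not called (limma adjusted p = 0.0594). That difference was −0.02 with scaling on the hybridization controls. At the brightest probe set naming GAS5 and its snoRNAs, 224741_x_at, the level was 11.88, 12.04 and 12.06 in USP48 overexpression cells and 10.65, 11.00 and 10.85 in empty vector cells. All USP48 overexpression arrays lay well above, by 1.16 ± 0.11 (SE; limma adjusted p = 3.35e-05), and by 0.87 with scaling on the hybridization controls. Of the other such probe sets, 224841_x_at was higher by 1.23 and 228238_at by 0.43, and 227517_s_at gave 0.16 (limma adjusted p = 0.348). Scaling on the hybridization controls took the last of these to −0.13 and ended the call of 228238_at (0.14).

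SNHG15, with SNORA9 inside, had the largest difference of these hosts. It was at 9.88, 10.02 and 9.58 in USP48 overexpression cells and at 8.24, 7.98 and 7.98 in empty vector cells. That is 3.38-fold, or 1.76 ± 0.13 as log2 (SE; limma adjusted p = 6.37e-06). SNHG1, which carries 8 snoRNAs of the SNORD22 to SNORD31 group, was at 9.85, 9.82 and 9.76 in USP48 overexpression cells and at 8.74, 8.73 and 8.81 in empty vector cells. Its groups were about 1 log2 unit apart (1.05 ± 0.09, SE; limma adjusted p = 1.38e-05).

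SNHG11 was higher by 0.66, SNHG12 by 0.50 and SNHG5 by 0.45 on the log2 scale, with no overlap of the groups, and the calls of SNHG12 (0.21) and SNHG5 (0.15) were lost with scaling on the hybridization controls. Other bright hosts were not called. SNHG6, the host of SNORD87, was at 11.38 ± 0.02 in USP48 overexpression cells and 11.36 ± 0.03 in empty vector cells (SD, n = 3 each). SNHG16 gave a difference of 0.09, SNHG8 of 0.16, SNHG7 of 0.18 and SNHG29 of 0.31 (limma adjusted p = 0.101), none of them called. SNHG6, SNHG16, SNHG8 and SNHG7 turned to −0.27, −0.21, −0.13 and −0.11 with scaling on the hybridization controls. Of the 13 SNHG genes measured in this way only, 5 were higher and 0 lower by limma (6 and 0 at an unadjusted p under 0.05). Of all probe sets 10.6% were higher and 13.8% lower. Most of the 13 are bright, and of genes above the median level 22.4% were higher and 23.9% lower. With that scaling 3 of the 13 were higher and 1 lower (3.34% and 39.0% of all probe sets).

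Of the 13 SNHG genes of this kind 10 had a promoter in the RefSeq table, and SNHG15 had none there. Of the 10, SNHG12 and SNHG5 have a pyrimidine run at the annotated start, again in capitals. They lie at chr1:28581844-28581893 and chr6:85678704-85678753 on the minus strand. SNHG1 at chr11:62855856-62855905 and GAS5 at chr1:173869016-173869065, also on the minus strand, have shorter ones or none at that base and are shown for contrast. The run was looked for at the annotated start alone, and the starts used in these cells were not analysed.
SNHG12: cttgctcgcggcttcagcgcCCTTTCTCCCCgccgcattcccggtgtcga
SNHG5: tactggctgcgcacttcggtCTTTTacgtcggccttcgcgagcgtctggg
SNHG1: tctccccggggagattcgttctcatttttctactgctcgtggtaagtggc
GAS5: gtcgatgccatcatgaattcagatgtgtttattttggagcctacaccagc
Of the other motifs searched on both strands of the promoters, from 250 bases before the start to 50 after it, the E-box CACGTG was in 0 of 40 members and 7.26% of all promoters. The CCAAT box was in 16 of 40 members (40.0%, against 34.6% of all), and the ATF4 composite core TGATGNAA in 2 (5.0%, against 3.62%). The AP-1 motif TGANTCA, the core of the interferon-stimulated response element and the NF-kappaB motif were each in 1 of 40 members (2.5%), against 7.71%, 3.57% and 1.91% of all promoters.

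**Figure D2:**
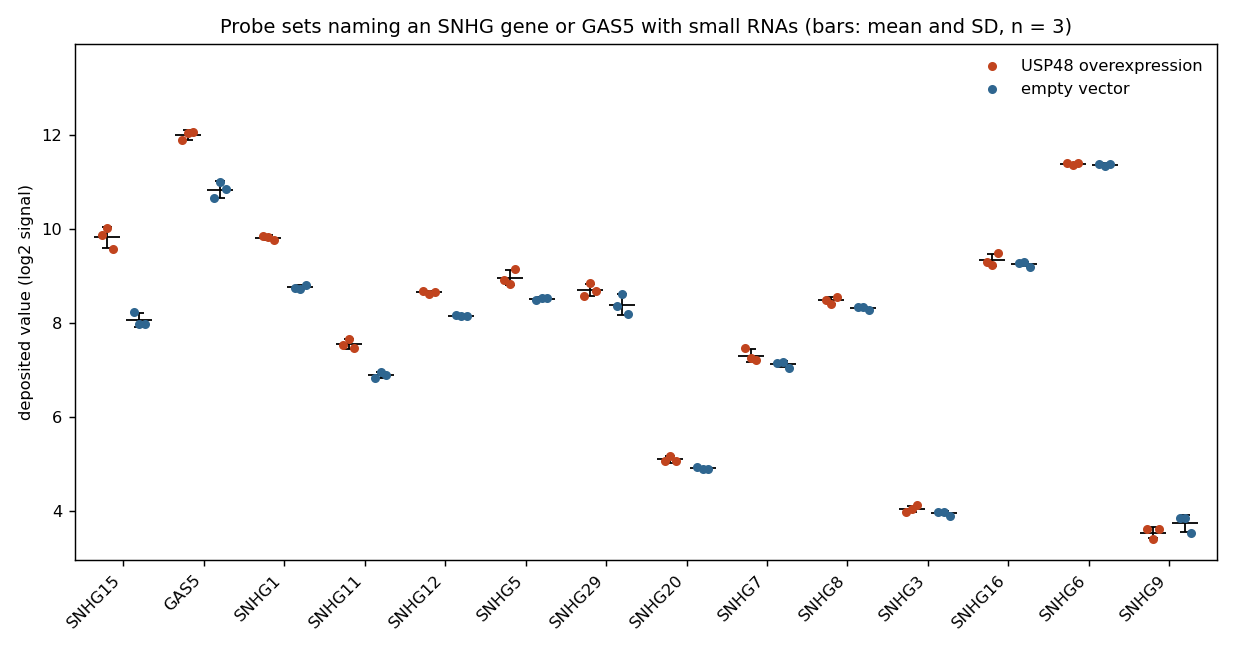
Deposited value (log2 signal, vertical axis) on each array at the brightest probe set naming GAS5, or one of the 13 SNHG genes that are not members, together with small RNAs, with 3 arrays of USP48 overexpression left and 3 of empty vector right for each gene, and the mean and SD as bars. SNHG15, GAS5, SNHG1, SNHG11, SNHG12 and SNHG5 were called higher, while SNHG6 and SNHG16 overlap. With scaling on the hybridization controls SNHG12 and SNHG5 were not called.

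MALAT1 was the member that fell most. At its brightest probe set it was at 10.25, 9.71 and 10.08 in USP48 overexpression cells, against 11.12, 11.07 and 11.40 in empty vector cells. No USP48 overexpression array reached the lowest empty vector array, and the difference was −1.18 ± 0.14 (SE), 2.27-fold lower (limma adjusted p = 0.000119). All 12 of its probe sets had a negative difference, from −1.85 to −0.36, and 11 were called lower. The exception was 226675_s_at, at 8.25 ± 0.87 in USP48 overexpression cells and 8.61 ± 0.46 in empty vector cells (SD, n = 3 each; limma adjusted p = 0.53 over all probe sets), where the groups overlapped. Scaling on the hybridization controls left 11 called lower, and quantile normalization 10.

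NEAT1 lies beside MALAT1 in the genome, and its probe sets did not move as one. At the brightest, 224565_at, it was at 8.39, 8.03 and 8.15 in USP48 overexpression cells and at 8.24, 8.13 and 8.45 in empty vector cells. The groups overlapped and the difference was −0.08 ± 0.12 (SE; limma adjusted p = 0.684), or −0.38 with scaling on the hybridization controls, where it was called (limma adjusted p = 0.0433). The dimmer 225239_at was at 5.17, 5.25 and 5.25 in USP48 overexpression cells and at 6.81, 6.83 and 6.95 in empty vector cells, 3.12-fold lower (limma adjusted p = 1.35e-06). Probe set 234989_at was lower by 1.33 and 227062_at by 0.42, while 214657_s_at was higher by 0.83 on the log2 scale. Of the 9 probe sets naming NEAT1 and MIR612, 1 was higher, 3 were lower and 5 were not called. One of those not called, 220983_s_at, has an accession that RefSeq gives to SPRY4. It lay at 1.26 in USP48 overexpression cells and 1.11 in empty vector cells, differed by 0.16 (limma adjusted p = 0.398) and is left out of the plot of probe sets. Which of the short and long NEAT1 isoforms each one reads was not analysed here.

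**Figure D3:**
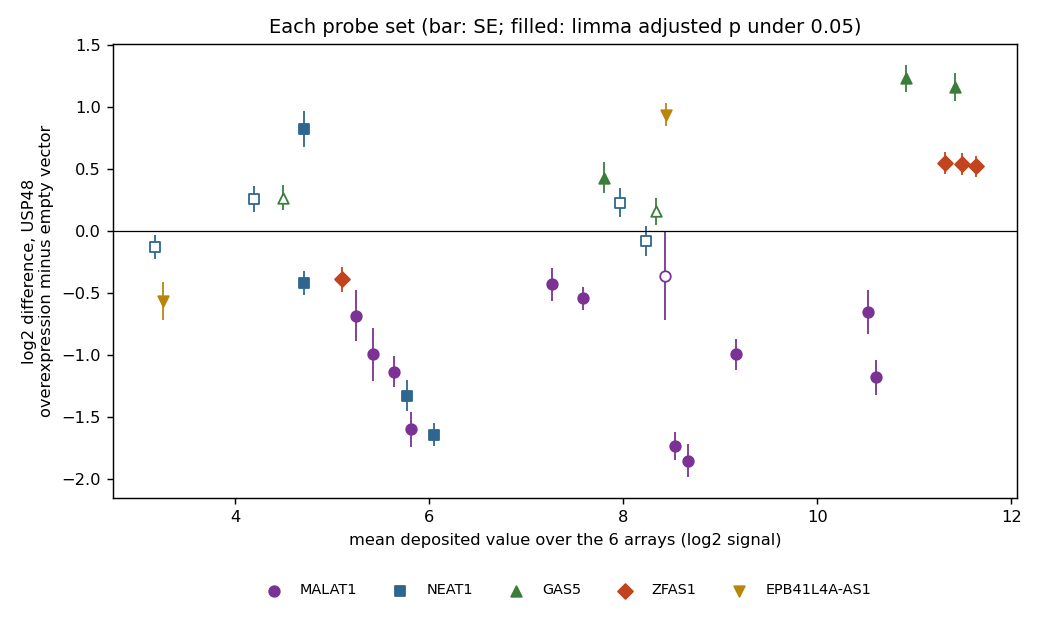
Log2 difference of the probe sets of MALAT1, NEAT1 (without 220983_s_at), GAS5, ZFAS1 and EPB41L4A-AS1, USP48 overexpression minus empty vector (vertical axis, bar: SE), against its mean level over the 6 arrays (log2 signal, horizontal axis), filled where the limma adjusted p over all probe sets is under 0.05. All 12 MALAT1 probe sets lie below 0, while those of NEAT1, ZFAS1 and EPB41L4A-AS1 lie on both sides. With scaling on the hybridization controls the 8 NEAT1 probe sets plotted had 1 higher and 5 lower.

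Of the 36 MIR hosts, 2 were higher and 4 lower (16.7% called, against 29.8% of all genes), and most were dim. At or below the median level of all genes were 29 of them, with 13.8% called against 13.4% of such genes. MIR181A2HG, the host of miR-181a and miR-181b, differed most. It was at 4.40, 4.13 and 4.33 in USP48 overexpression cells and at 5.14, 4.88 and 4.99 in empty vector cells. The groups did not overlap, and the difference was −0.72 ± 0.10 (SE; limma adjusted p = 0.000425). This gene lies just below the median level, above 46.6% of all genes.

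MIR550A3HG was at 6.49, 6.49 and 6.52 in USP48 overexpression cells and at 6.86, 7.07 and 6.98 in empty vector cells. The USP48 overexpression arrays were nearly equal and all lower, with a difference of −0.47 ± 0.09 (SE; limma adjusted p = 0.00201). MIRLET7BHG, whose span holds let-7a and let-7b, was at 4.99, 4.96 and 4.94 in USP48 overexpression cells and at 5.22, 5.32 and 5.36 in empty vector cells. It was lower at this probe set by 0.34 (SE 0.08; limma adjusted p = 0.00976) and higher by 0.47 at its other one, 1557342_a_at (limma adjusted p = 0.0185 over all probe sets), so no direction holds for the gene. This other probe set was not called with scaling on the hybridization controls (0.17).

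MIR31HG, the host of miR-31, was at 4.29, 4.38 and 4.15 in USP48 overexpression cells and at 4.60, 4.64 and 4.56 in empty vector cells. The difference was −0.33 ± 0.09 (SE; limma adjusted p = 0.017), without overlap, and the gene missed the threshold when empty vector replicate 1 (limma adjusted p = 0.0515) or 2 (0.0649) was left out. MIR99AHG, the host of let-7c, miR-99a and miR-125b, was at 3.42, 3.51 and 3.38 in USP48 overexpression cells and at 3.08, 3.28 and 2.81 in empty vector cells. These levels are low, above only 26.0% of all genes. The difference was 0.38 ± 0.12 (SE; limma adjusted p = 0.0302), and its other probe sets gave 0.19 and −0.51, the last of them called lower. MIR99AHG was not called with scaling on the hybridization controls (0.09, limma adjusted p = 0.579), nor with the mean of its probe sets (0.02). Without USP48 overexpression replicate 1 or 2 or empty vector replicate 1 or 3 the limma adjusted p of MIR99AHG was 0.0684, 0.0921, 0.0732 and 0.103.

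MIR3667HG was at 4.66, 4.76 and 4.71 in USP48 overexpression cells and at 4.53, 4.44 and 4.42 in empty vector cells. The difference of 0.24 ± 0.08 (SE; limma adjusted p = 0.0449) was the weakest of the calls. It was −0.05 with scaling on the hybridization controls, and the gene was not called with median centring (limma adjusted p = 0.0581) or over all probe sets (0.0693). The second probe set of MIR3667HG, 1570065_at, gave −0.04 and was not called. MIR22HG, measured by a probe set that also names MIR22, was at 8.12, 8.01 and 8.49 in USP48 overexpression cells and at 7.54, 7.23 and 7.44 in empty vector cells. It was higher on every USP48 overexpression array, by 0.80 ± 0.13 (SE; limma adjusted p = 0.00124). One of the 2 mature forms of miR-22 is shown with its seed in capitals.
hsa-miR-22-3p: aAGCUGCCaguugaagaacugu
MIR4453HG was lower by 0.36 (limma adjusted p = 0.0411), and MIR17HG, the host of the miR-17 cluster, gave −0.22 at its own dim probe set and −0.02 at the one naming its microRNAs. With scaling on the hybridization controls these 2 probe sets of MIR17HG were at −0.51 and −0.32, both called lower (39.0% of all probe sets were).

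The 3 brightest members not called were MIR hosts. MIR1915HG was at 6.16, 5.91 and 5.91 in USP48 overexpression cells and at 5.85, 5.87 and 5.98 in empty vector cells, a difference of 0.09 ± 0.10 (SE; limma adjusted p = 0.536). Its dimmer probe set 239503_at was called lower (−0.53, limma adjusted p = 0.0314 over all probe sets). MIR1-1HG was at 5.87, 5.70 and 6.11 in USP48 overexpression cells and at 5.77, 5.69 and 5.69 in empty vector cells, 0.18 ± 0.11 apart (SE; limma adjusted p = 0.245). MIR4435-2HG was at 5.69, 5.80 and 5.90 in USP48 overexpression cells and at 5.63, 5.77 and 5.33 in empty vector cells, 0.22 ± 0.12 apart (SE; limma adjusted p = 0.194). The groups of all 3 overlapped, and with scaling on the hybridization controls their differences were −0.20, −0.11 and −0.07. A far brighter probe set, 225799_at, names MIR4435-2HG together with CYTOR, a lncRNA of very similar sequence, so its signal cannot be given to either gene. It was at 10.16, 9.97 and 10.18 in USP48 overexpression cells and at 9.41, 9.22 and 9.30 in empty vector cells, higher by 0.79 ± 0.10 (SE; limma adjusted p = 0.000204).

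Of all 38 members not called, 26 had a positive and 12 a negative difference, from −0.26 for MIR200CHG to 0.27 for GAS5, and all 26 were below 0 with scaling on the hybridization controls. Dimmer probe sets of SNHG27, MIR100HG and MIR1915HG were called as deposited. That of MIR100HG, 241975_at, was higher by 0.34 (limma adjusted p = 0.0343 over all probe sets), or 0.05 and not called with that scaling. Hosts of microRNAs known from other lineages spanned the range of the uncalled members. At the low end were MIR133A1HG (muscle) at 1.37 and 1.28, MIR124-2HG (neurons) at 2.24 and 2.31 and MIR205HG (squamous epithelium) at 2.21 and 2.12 in USP48 overexpression and empty vector cells. Higher up were MIR9-1HG (neural), at 4.69 in USP48 overexpression cells and 4.61 in empty vector cells, and MIR1-1HG, which holds the muscle microRNAs MIR1-1 and MIR133A2 and was among the brightest of these members. MIR210HG, whose microRNA is induced by low oxygen, was at 3.75 in USP48 overexpression cells and 3.74 in empty vector cells. Without detection calls it was not settled whether such levels are above background.

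**Figure D4:**
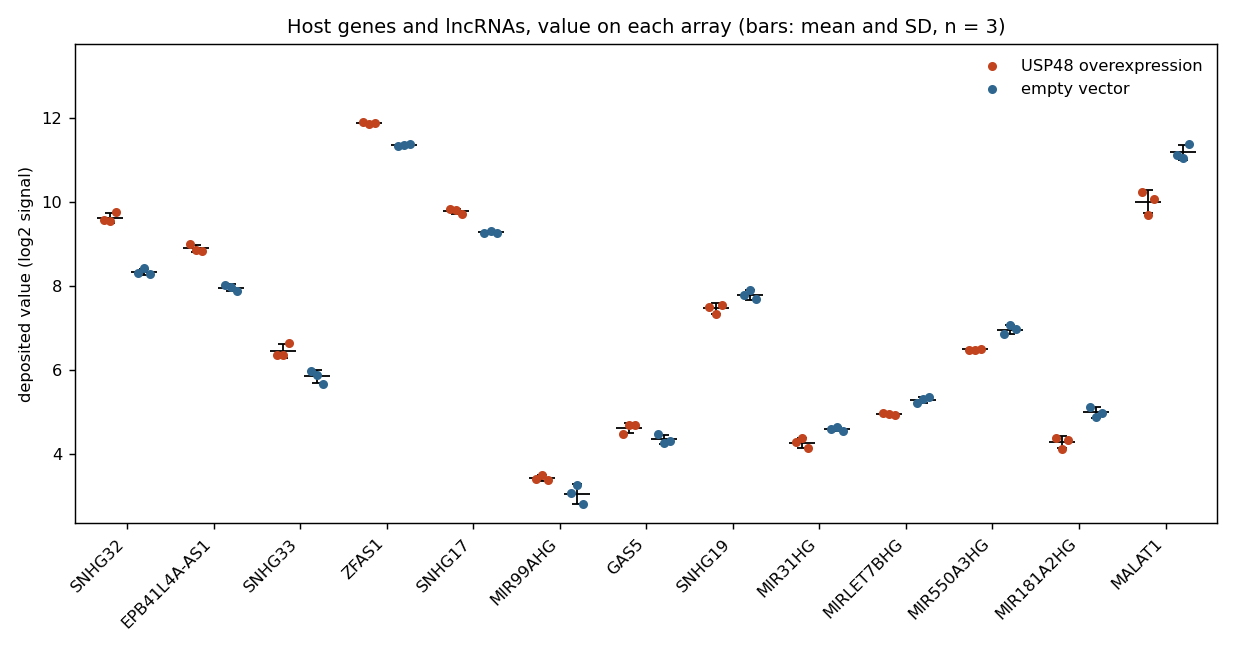
Deposited value (log2 signal, vertical axis) on each array for the named members, 3 arrays of USP48 overexpression left and 3 of empty vector right for each gene, with the mean and SD as bars. From SNHG32 to GAS5 the USP48 overexpression arrays are higher and from SNHG19 to MALAT1 lower. GAS5 was not called, and with scaling on the hybridization controls ZFAS1, SNHG17 and MIR99AHG were not called and GAS5 was at −0.02.

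Over all 90 probe sets naming a member alone, 13 were called higher (10.6% of all probe sets were) and 20 lower (13.8% of all probe sets), with the 11 of MALAT1 among the lower ones. Scaling on the hybridization controls gave 3 higher (3.34% of all probe sets) and 36 lower (39.0%). Of the 9 called members with several probe sets, 4 had probe sets called in opposite directions, namely ZFAS1, EPB41L4A-AS1, MIRLET7BHG and MIR99AHG, and with that scaling EPB41L4A-AS1 alone of these 4 did. SNHG17 and SNHG33 were called higher by each of their 2 probe sets as deposited. The 10 probe sets that name only a small RNA inside a host, for 7 snoRNA or microRNA genes, gave differences from −0.19 to 0.30, and 0 were called by limma over all probe sets (1 at an unadjusted p under 0.05).

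The protein-coding genes next to the called hosts were taken from the order of genes in RefSeq. Of 26 measured neighbours of the called members, 5 were higher (15.7% of all genes were), 9 lower (14.1% of all genes) and 12 not called. Above the median level lay 17 of them, where 46.3% of all genes were called, and 53.8% of the 26 were. Scaled on the hybridization controls, 1 was higher and 11 lower (4.84% and 37.9% of all genes). EPB41L4A, which EPB41L4A-AS1 overlaps, was at 5.51 ± 0.04 in USP48 overexpression cells and 7.32 ± 0.10 in empty vector cells (SD, n = 3 each). Its difference was −1.81 (limma adjusted p = 4.43e-07). The antisense RNA went the opposite way at its brightest probe set and the same way at its dimmer one (−0.56). NREP and APC on either side of EPB41L4A-AS1 were also lower, by 1.06 and 0.79 on the log2 scale. ZNFX1, an RNA helicase gene that shares its start region with ZFAS1, was higher with it, at 9.30 ± 0.23 in USP48 overexpression cells and 8.15 ± 0.09 in empty vector cells (SD, n = 3 each; difference 1.15, limma adjusted p = 4.11e-05).

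Neighbours of further hosts differed between the groups as well. Of 14 measured neighbours of the called hosts that are not members, 4 were higher (15.7% of all genes were) and 1 lower (14.1% of all genes). Most of the 14 lie above the median level, where 22.4% of genes were higher and 23.9% lower. SLC3A2, the heavy chain of an amino acid transporter, lies after SNHG1 and was higher by 0.72. NEU1, a lysosomal sialidase, lies after SNHG32 and was higher by 0.47, not called with scaling on the hybridization controls (0.18, limma adjusted p = 0.283). RAB26 and TRAF7 on either side of SNHG19 were lower by 1.55 and 0.43. OLFML2A, after MIR181A2HG, was lower by 1.56, and RAB42, after SNHG12, was higher by 1.20. Beside MIRLET7BHG, PPARA was lower by 0.87 and WNT7B higher by 0.43, the second of them not called with that scaling (0.14, limma adjusted p = 0.312). Against their host at its brightest probe set went PRR15 (0.71, beside MIR550A3HG), TMEM154 (0.79, MIR4453HG), TLCD2 (−0.66, MIR22HG) and CXADR (−0.40, MIR99AHG). With it went USP25 (0.31, MIR99AHG), MYO1G (0.40, SNHG15) and MTAP (−0.42, MIR31HG). PRR15, USP25 and MYO1G were not called with that scaling (0.41, 0.02 and 0.10). CXADR and MTAP also had probe sets called higher.

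The proteins that work on these RNAs are given as lists chosen by function. Most of the genes listed lie above the median level, where 46.3% of genes were called, 22.4% higher and 23.9% lower, or 8.08% higher and 49.7% lower with scaling on the hybridization controls. Of 17 measured snoRNP proteins, which assemble or form snoRNA particles, 5 were higher and 3 lower (47.1% called), or 2 higher and 7 lower with scaling on the hybridization controls. The assembly factors NAF1, ZNHIT3 and RPAP3 were higher by 0.65, 0.64 and 0.41 and the H/ACA core protein GAR1 by 0.55, while FBL, the methyltransferase of box C/D snoRNPs, was lower by 0.34. RPAP3 (0.12) and GAR1 (0.26) were not called with that scaling. FBL was at 9.75 ± 0.04 in USP48 overexpression cells and 10.09 ± 0.05 in empty vector cells (SD, n = 3 each). The median over the list was 0.19, against 0.05 over all genes.

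Of 18 measured protein-coding snoRNA hosts, 1 was higher and 2 were lower (16.7% called), or 0 higher and 10 lower with scaling on the hybridization controls. WDR43, a ribosome biogenesis factor, was higher by 0.46 (0.17 and not called with that scaling), and the translation factor EIF4G2 and PTCD3 were lower by 0.48 and 0.27. Their median was −0.03. None of the 8 ribosomal protein hosts measured was called by limma, and 0 had an unadjusted p under 0.05, while with that scaling 4 were lower.

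Of 15 measured genes of microRNA processing, 0 were higher and 7 lower by limma (46.7% called; 1 and 7 at an unadjusted p under 0.05), or 0 and 11 with scaling on the hybridization controls. The share called was close to that of all genes above the median level, where 12 of the 15 lie. DROSHA, the nuclear microRNA enzyme, was at 8.94, 9.02 and 9.15 in USP48 overexpression cells and at 9.64, 9.61 and 9.65 in empty vector cells. It was lower on every array, with a difference of −0.60 ± 0.09 (SE; limma adjusted p = 0.000441). AGO1 was lower by 0.67 and the terminal uridylyltransferase TUT4 by 0.51. DICER1 was lower by 1.06 at a low level, with 2 of its 6 probe sets called lower, 0 higher and the others up to 0.33. The list's median was −0.13.

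Of 11 measured paraspeckle proteins, 0 were higher and 5 lower by limma (45.5% called; 0 and 6 at an unadjusted p under 0.05), or 0 and 9 with scaling on the hybridization controls. NONO was at 10.78, 10.76 and 10.73 in USP48 overexpression cells and at 11.45, 11.44 and 11.34 in empty vector cells. The groups were well apart, with a difference of −0.65 (limma adjusted p = 0.000161), although another of its 3 probe sets was higher by 0.40 (0.11 and not called with that scaling). RBM14 and CPSF6 were each lower by 0.42 and TARDBP by 0.33, and SFPQ by 0.32. The list's median was −0.22.

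Of 12 measured genes of nonsense-mediated decay, 3 were higher and 2 lower (41.7% called), or 2 higher and 6 lower with scaling on the hybridization controls. SMG5, MAGOHB and PNRC2 were higher by 0.68, 0.65 and 0.36, the last of them not called with that scaling (0.06), and NBAS was lower by 0.40. The list's median was −0.02. Of 25 measured subunits and cofactors of RNase P and the nuclear exosome, which trim and degrade nuclear RNA, 11 were higher and 2 lower (52.0% called), or 2 higher and 5 lower with that scaling. All 25 lie above the median level, where 46.3% of genes were called, 22.4% higher and 23.9% lower. ZCCHC8, an exosome adaptor subunit, was higher by 0.68, ZCCHC7 by 0.61 and RPP38 by 0.56 (0.27 and not called with that scaling), while the exosome helicase MTREX was lower by 0.45. ZCCHC7 also had a probe set lower by 1.49. The list's median was 0.22.

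Other lncRNAs went both ways. Of 22 measured, 4 were higher and 6 lower (45.5% called, with 12 of the 22 above the median level), or 2 higher and 11 lower with scaling on the hybridization controls, with a median of −0.06. UCA1, a lncRNA of urothelial carcinoma, was at 9.0, 9.08 and 8.22 in USP48 overexpression cells and at 7.36, 7.07 and 7.0 in empty vector cells, 3.09-fold higher (limma adjusted p = 0.000139). FTX, from the X-inactivation centre, was at 5.52, 5.32 and 5.44 in USP48 overexpression cells and at 7.05, 6.95 and 7.23 in empty vector cells, 3.13-fold lower (limma adjusted p = 1.65e-06). No arrays overlapped between groups in either gene. DANCR, itself a snoRNA host, was lower by 1.15 and DLEU1 by 1.11 on the log2 scale.

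Markers of other cell types were read for the same arrays. Of 7 stellate cell and fibroblast markers, 0 were higher (15.7% of all genes were) and 2 lower (14.1% of all genes), LUM by 1.35 and DCN by 1.14. That is 28.6% called, against 29.8% of all genes. Of their probe sets, 1 of 2 for LUM and 4 of 7 for DCN were called lower, with the others up to −0.20 and 0.19. The mean level of the list was 4.57 to 4.66 on the USP48 overexpression arrays and 4.95 to 5.14 on the empty vector arrays. CDH1 and EPCAM were lower among 5 epithelial markers, and the other 3 were not called. Among 5 endothelial markers, all at or below the median level, CDH5 was lower and 4 were not called. Differences of the endothelial list reached 0.23, with a median of 0.03. The shares called were 40.0% and 20.0%, against 29.8% of all genes. Of 7 leukocyte markers CD2 was higher by 0.29 at a low level, and −0.01 with scaling on the hybridization controls. With that scaling 6 of the 7 stellate cell and fibroblast markers were lower (37.9% of all genes were). The part of these markers in the host gene differences was not tested.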

How the data were processed

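The 6 samples of SNU-449 RNA were read on Affymetrix arrays, 3 per group, which limits the precision, and titles gave the groups and replicate numbers. The deposited values are log2, from RMA per the submitters' processing notes, and the version of RMA is not given in the sources used. As RMA equalises signal between arrays, total RNA per cell is not seen. No detection calls were used.

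The table has 54675 probe sets: 41091 name 1 symbol, 1801 name several, 11721 name none and 62 are controls. Checked against the RefSeq table of GRCh38.p14, 0 symbols changed. There were 0 identical and 0 unused columns. The test was limma 3.58.1 (R 4.3.3), two-sided, with lmFit, eBayes and Benjamini-Hochberg adjustment at a threshold of 0.05. It ran over 19775 genes, each by the brightest probe set naming 1 symbol, and over 54613 probe sets where a probe set is named. Differences are USP48 overexpression minus empty vector as log2. The test was checked on simulated data. Of 51 members, 40 had a promoter in the RefSeq table. Plots were made with matplotlib 3.10.9 (Python 3.11.15).

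The members and lists were chosen with earlier results of these data known, and no list was tested. Values per array are given for the 12 called members with the largest differences, the genes chosen by name and the 3 brightest others. Of each list up to 4 called members are named. FBL, SFPQ, MIR3667HG, the hosts measured with small RNAs and single members of the uncalled set were named after their values were seen. Alternatives were quantile normalization, median centring, scaling on the hybridization controls, a robust prior with an intensity trend, the dimmest 33.3% of genes left out, other rules for probe sets, the replicate number as a block, each array left out, a threshold of 0.01 and a limit of 1.5-fold. Same-numbered arrays had correlations of deviations of 0.00419, 0.166 and 0.015, and differently numbered ones −0.12 to 0.111. These values do not settle whether the numbers pair the samples.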

Additional observations from a re-analysis of the deposited data

How the results depend on the processing

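Adding probe sets that name several symbols gave 15 higher hosts of 78. Adding only those naming a host with small RNAs, an alternative chosen after seeing the data, gave 14 of 77. By the main rule 7 of 51 members and 15.7% of all genes were higher. The first of these alternatives counts 225799_at as MIR4435-2HG (0.79), although it also names CYTOR, and probe sets that also name MATR3 as SNHG4. With scaling on the hybridization controls 3 members were higher and 17 lower and their median was −0.20, where that of all genes was −0.24. With a limit of 1.5-fold 3 members were higher and 2 lower, and of all genes 2210 were called, against 3847 at an adjusted p under 0.01 and 5897 otherwise. Leaving out each array in turn gave 4547 to 5673 genes, 5 to 7 members higher, 4 to 6 lower and a median of 0.06 to 0.10.

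The replicate number as a block gave 5824 genes, with 6 members higher and 5 lower, and SNHG19 was no longer called (limma adjusted p = 0.0548). Whether the numbers pair the samples is not known, so the loss of this call is given without further reading.

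Signs turned with scaling on the hybridization controls for all 26 uncalled members with a positive difference and for MIR3667HG (−0.05). Among these were GAS5 (−0.024), MIR1915HG (−0.20), MIR1-1HG (−0.11) and MIR4435-2HG (−0.073). Of the members followed in each alternative, MIRLET7BHG (0.064) and MIR1915HG (−0.12) turned with the mean of all probe sets. Single probe sets opposed the brightest one for EPB41L4A-AS1 (−0.56), ZFAS1 (−0.39), MIR99AHG (−0.51), MIRLET7BHG (0.47), MIR1915HG (−0.53) and MIR4435-2HG (−0.11). The cause was not tested. SNHG32, SNHG33 and MIR181A2HG were called in the same direction under every alternative run, and MALAT1 under every one except 1 probe set on its own (−0.36). MIR550A3HG missed the 1.5-fold limit (1.38-fold) and was not called by 1 probe set on its own (−0.30). MIR99AHG also lost its call with scaling on the hybridization controls (0.09) and with the mean of its probe sets (0.02). GAS5 was called with quantile normalization (0.30), without the dimmest genes (limma adjusted p = 0.0339), with the mean of probe sets (limma adjusted p = 0.0468) and without USP48 overexpression replicate 1 (0.34).

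Counts of the other lists moved as well. With an intensity trend and a robust prior, 2 protein-coding snoRNA hosts were higher and 7 lower. With the mean of all probe sets, 8 paraspeckle proteins were lower, 1 gene of nonsense-mediated decay was higher, and 8 genes of RNase P and the exosome were higher and 4 lower. At an adjusted p under 0.01, 7 of these were higher and 1 lower, and 4 microRNA processing genes were lower. With each array left out, 3 to 5 snoRNP proteins, 8 to 11 genes of RNase P and the exosome and 2 to 3 of nonsense-mediated decay were higher, and 5 to 6 microRNA processing genes and 4 to 5 paraspeckle proteins were lower.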
